A study of Mus musculus with 18 samples.

Results

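The Hox genes of mouse embryonic fibroblasts were examined across 9 groups of RNA-seq libraries. Members were all rows of the deposited gene table with a symbol made of Hox, a cluster letter from a to d and a number. That rule gave 39 genes of the 55536 in the table and used no expression value. It was set with earlier results of these data known. They are the protein-coding Hox genes of the HoxA cluster on chromosome 6, HoxB on chromosome 11, HoxC on chromosome 15 and HoxD on chromosome 2 (GRCm38). Total RNA came from 3 immortalized fibroblast lines grown in DMEM with 10% FBS. WT carried no deletion, p65 KO lacked the NF-kB subunit p65 (gene Rela), and IKK2 KO lacked the kinase IKK2, also called IKK beta (gene Ikbkb), which activates NF-kB by marking its inhibitors for destruction. Each line was left untreated (0 min) or given TNF alpha, an inflammatory cytokine, at 10 ng/ml for 45 or 90 min, with 2 libraries a group, called a and b here in the order of the table. The labels describe each line only as immortalized, with no clone, method of immortalization or embryo age. Each genotype is 1 line, so the genotype and the history of the line cannot be told apart. Nothing states that the libraries of a group came from separate cultures, so p-values measure the spread between these libraries, which may be technical.

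Hox genes encode homeodomain transcription factors that give cells an address along the head-to-tail axis of the embryo. Within each cluster the genes stand in the order of their numbers: low numbers act towards the head and early, high numbers towards the tail and late. Fibroblasts grown in culture keep much of the Hox pattern of the body site they came from, held by Polycomb and Trithorax chromatin complexes, and Hox proteins bind DNA together with TALE cofactors of the PBX and MEIS families.

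The members share the homeobox, which codes for the DNA-binding domain. Its most alike part codes for the recognition helix, which lies in the major groove of DNA. A stretch of 24 bases that codes for part of that helix is shown for 10 members. They were chosen because the results turn on them, on a paralogue of theirs, or on an identical stretch elsewhere. Sequences are 5′ to 3′ on the coding strand from GENCODE M21 transcripts, and capitals mark the bases that differ from Hoxa3.
Hoxa3: tggttccagaaccgccgcatgaag
Hoxc6: tggttccagaaccgccgcatgaag
Hoxb3: tggttccagaaccgTcgcatgaag
Hoxb5: tggttccagaaccgTcgcatgaag
Hoxa2: tggttTcagaaccgGAgAatgaag
Hoxb2: tggttccagaaccgAcgcatgaaA
Hoxb9: tggttTcagaaccgGcgGatgaaA
Hoxd8: tggttccagaacAgGAgAatgaaA
Hoxd9: tggttccagaaccgTAgGatgaaA
Hoxb13: tggttTcagaaccgccgGGtCaag
Hoxa3 and Hoxc6 were identical over this stretch although they stand in different clusters and carry different numbers. Hoxb3 and Hoxb5 also matched each other and Hoxd3 exactly. Such matches were found in other members too: Hoxa4 matched Hoxa2, Hoxa6 and Hoxa7 matched Hoxb4, and Hoxb6 matched Hoxb7. Over the 180 bases of the homeobox, the 42 pairs of members with the same number had a median identity of 80.6%, and the 699 pairs with different numbers had 60.6%. The longest run of coding bases shared by any of the 741 pairs was 52 bases, and reads were 76 bases long, so no pair shared a coding run as long as a read. The comparison took the longest coding sequence of each gene and left out untranslated stretches. Hoxb2 had fractional values in all 18 libraries, among 46 fractional Hox values, and the reason was not tested.

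Depth was even. The libraries held 16708346 to 23469439 deposited counts, and Hox genes together took 1356 to 4508 of them. Values are given as CPM, counts scaled to the TMM-adjusted size of the library, for comparisons of a gene between libraries, and as RPKM, which also divides by the length of the gene, where genes are compared. Of the 39 members, 26 passed the filter on low counts over all 18 libraries and were tested. Among the other 13, Hoxa11, Hoxb1, Hoxc12, Hoxd1 and Hoxd12 had no count in any library, and Hoxa13, Hoxc10, Hoxc11, Hoxc13, Hoxd3, Hoxd4, Hoxd11 and Hoxd13 had between 1 and 77 counts in all. A count of 0 in a library allowed up to 0.117 to 0.186 CPM, which covers counting error only. Rela stood at 5.25 to 6.55 CPM in the 6 p65 KO libraries and at 63.2 to 110.5 CPM in the 6 WT libraries. Ikbkb stood at 40.2 to 44.8 CPM in IKK2 KO, 42.7 to 46.2 CPM in p65 KO and 59.3 to 64.1 CPM in WT, so its level did not set IKK2 KO apart, and counts over the whole gene do not check a deletion of part of it. The 10 fibroblast markers summed to 11290 to 11340 CPM in untreated WT, 4855 to 4859 CPM in p65 KO and 11260 to 11590 CPM in IKK2 KO. The fibroblast surface marker Thy1 was at or near 0 in WT and p65 KO and at 26.9 to 27.1 CPM in untreated IKK2 KO. Marker lists of epithelial, endothelial, myeloid, muscle, adipocyte and pluripotent cells each summed to 2.79 CPM or less in every untreated library. The neural list summed to 441.2 to 443 CPM in untreated WT, 16.1 to 17.1 in p65 KO and 320.7 to 322.4 in IKK2 KO, nearly all of it Nes, which fibroblasts in culture can express.

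The 3 untreated lines carried different Hox codes. All 3 held the HoxA genes from Hoxa2 to Hoxa7 and Hoxa10 at a mean of 1 CPM or more. WT added Hoxa9, Hoxb2 to Hoxb6 and Hoxd8, and its untreated libraries held no HoxC gene above 0.254 CPM. The p65 KO line added the same HoxB genes except Hoxb5, together with Hoxb8, Hoxb9, Hoxb13 and the run from Hoxd8 to Hoxd10. IKK2 KO held the whole run from Hoxb2 to Hoxb9 and from Hoxc4 to Hoxc9 and no HoxD gene above 0.118 CPM in any library. At 1 CPM or more were 15 members in WT, 18 in p65 KO and 21 in IKK2 KO.

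**Figure D1:**
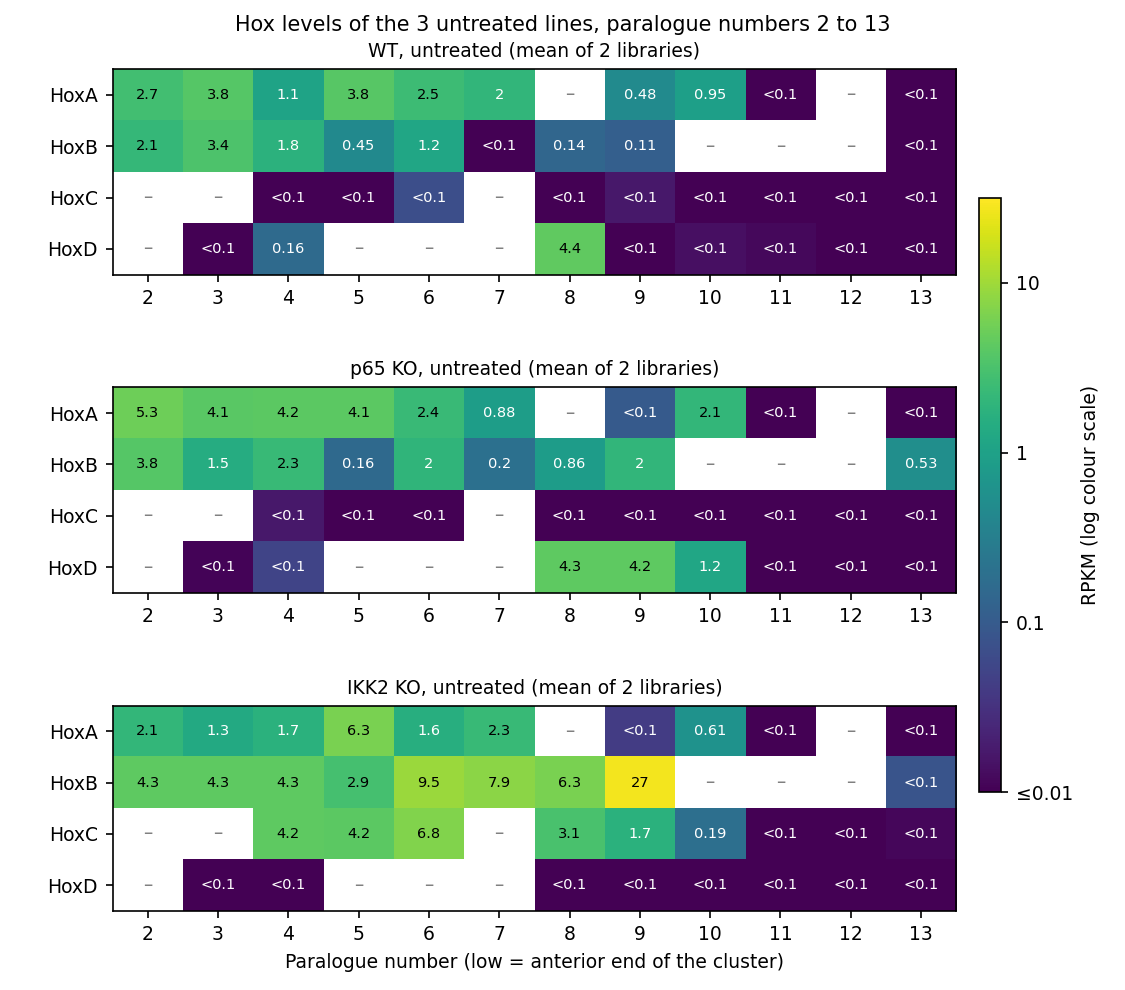
Mean RPKM of the Hox genes with paralogue numbers 2 to 13 in the untreated lines (2 libraries each), with clusters as rows and numbers as columns, on a log colour scale; a dash marks a number that the cluster lacks. HoxC genes reach 1 RPKM only in IKK2 KO and HoxD genes only in WT and p65 KO. Hoxb9 of IKK2 KO, at 27.0 RPKM, stands above every other cell.

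Summed over the 39 members, the Hox level was 96.7 ± 3.21 CPM (SD, n = 2) in untreated WT, 127 ± 0.559 in p65 KO and 262 ± 8.19 in IKK2 KO. HoxA held the largest share in WT and p65 KO, with 54.9% and 51.3%. In IKK2 KO HoxB held 64.8%, HoxC 20.5% and HoxA only 14.7%. HoxD held 13.3% in WT, 18.3% in p65 KO and 0.00109% in IKK2 KO. The libraries of the 3 lines did not overlap in the summed level at any time point. In bulk RNA, fewer cells that express a gene and less of its RNA per cell cannot be told apart.

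**Figure D2:**
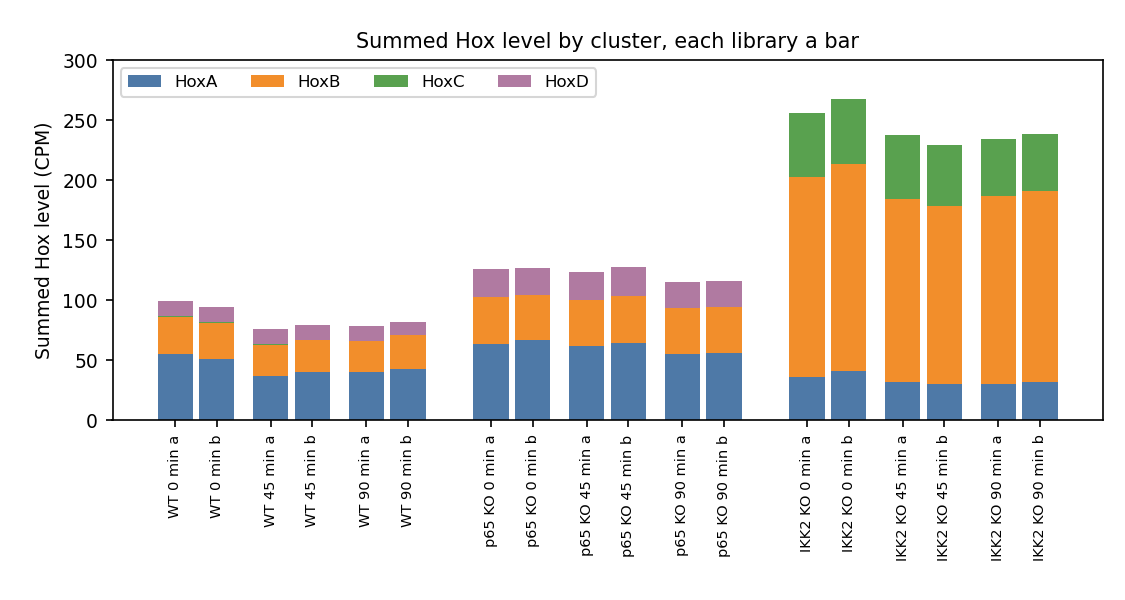
Summed CPM of the Hox genes in each of the 18 libraries, stacked by cluster; a and b are the 2 libraries of a group. IKK2 KO bars reach 229 to 267 CPM, most of it HoxB, against 75.8 to 99.0 CPM in WT.

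Among the members with the lowest numbers, which pattern the hindbrain and the pharyngeal arches, Hoxa3 and Hoxa2 stood at 3.83 and 2.75 RPKM in WT and 4.07 and 5.30 RPKM in p65 KO. Hoxa3, required for thymus and parathyroid development, lies at chr6:52169062-52213336 on the minus strand. Its untreated libraries gave 23.9 and 22.1 CPM in WT, 23.5 and 25.5 in p65 KO, and 6.96 and 8.98 in IKK2 KO. WT and p65 KO overlapped, and both stood clear above IKK2 KO. Against WT the edgeR quasi-likelihood fit gave a log2 difference of -1.53 ± 0.10 (SE; adjusted p = 1.9e-17) in IKK2 KO and 0.10 ± 0.07 (adjusted p = 0.23) in p65 KO. Hoxa2, the selector gene of the second pharyngeal arch (chr6:52162417-52164831), gave 4.67 and 5.09 CPM in WT, 9.68 and 9.14 in p65 KO, and 3.14 and 4.21 in IKK2 KO. The p65 KO libraries were the highest and the IKK2 KO libraries the lowest, without overlap.

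The HoxB partners of these genes ran another way. Hoxb2, a hindbrain gene at chr11:96350525-96354012, gave 7.13 and 7.76 CPM in WT, 13.7 and 12.6 in p65 KO, and 13.7 and 16.02 in IKK2 KO, so WT alone was low. Hoxb3, a paralogue of Hoxa3 at chr11:96323326-96347930, gave 14.5 and 14.1 CPM in WT, 6.94 and 5.57 in p65 KO, and 18.7 and 17.6 in IKK2 KO. It was lowest in p65 KO, at a log2 difference from WT of -1.19 ± 0.10 (edgeR, adjusted p = 1.3e-14), where Hoxa3 was not lower. The antisense RNA gene Hoxb3os overlaps 52.9% of the exon bases of Hoxb3 and 27.3% of those of Hoxb2. The kit was directional, but the strand setting of the counting is not given in the sources used here, so reads of such overlapping pairs cannot be told apart.

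The middle members, numbers 4 to 8, pattern the neck and chest. Hoxa5, needed for lung and neck development, was well expressed in every line and highest in IKK2 KO, with 7.91 and 6.53 CPM in WT, 7.62 and 7.73 in p65 KO and 11.3 and 12.4 in IKK2 KO. Hoxa4 gave 1.78 and 1.64 CPM in WT, 6.53 and 6.90 in p65 KO and 2.68 and 2.72 in IKK2 KO, a log2 difference of 1.98 ± 0.17 between p65 KO and WT (edgeR, adjusted p = 5.8e-14). Hoxa7 ran the opposite way, at 5.83 and 5.58 CPM in WT, 2.60 and 2.45 in p65 KO and 6.33 and 6.62 in IKK2 KO. Hoxa6 gave 2.43 and 1.93 CPM in WT, 2.51 and 1.62 in p65 KO and 1.14 and 1.61 in IKK2 KO, and WT and p65 KO overlapped.

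In HoxB the middle members were all highest in IKK2 KO. Hoxb4, known for expanding blood stem cells, gave 4.77 and 4.35 CPM in WT, 5.80 and 5.77 in p65 KO and 10.1 and 12.1 in IKK2 KO. Hoxb6 gave 1.98 and 2.59 CPM in WT, 3.70 and 4.05 in p65 KO and 18.8 and 18.3 in IKK2 KO. Both genes followed the same order of lines without overlap. Hoxb5 gave 1.37 and 1.15 CPM in WT, 0.502 and 0.374 in p65 KO and 7.53 and 8.67 in IKK2 KO, with p65 KO lowest. Hoxb7 had no count in any of the 6 WT libraries, 0.320 and 0.291 CPM in untreated p65 KO and 12.1 and 12.2 in untreated IKK2 KO. Taking 3 counts over the WT group as its limit, Hoxb7 was at least 179-fold higher in IKK2 KO than in WT. Hoxb8 gave 0.456 and 0.287 CPM in WT, 2.19 and 2.33 in p65 KO and 17.3 and 16.2 in IKK2 KO, which made it 46.1-fold higher in IKK2 KO than in WT.

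HoxC genes reached a mean of 1 CPM only in IKK2 KO. Hoxc6, a chest and forelimb-level gene at chr15:102998257-103011881, gave 15.97 and 17.0 CPM in untreated IKK2 KO, 0.254 and 0.0821 in WT and 0 and 0.0415 in p65 KO. Hoxc5 gave 12.8 and 13.2 CPM and Hoxc4 11.3 and 10.5 CPM in the same IKK2 KO libraries. Hoxc8, which patterns the chest, gave 8.72 and 9.04 CPM, and Hoxc9, which sets up chest-level motor neurons, gave 4.11 and 4.15. Per kilobase Hoxc6 led the cluster at 6.84 RPKM, ahead of Hoxc4 at 4.23, Hoxc5 at 4.21, Hoxc8 at 3.14 and Hoxc9 at 1.70 RPKM. Hoxc10 reached only 0.285 and 0.433 CPM. In WT and p65 KO each of these genes had 0 to 7 counts over both untreated libraries. Hoxc6, with 7 counts in WT, was 104-fold higher in IKK2 KO, with a 95% counting interval of 49.9 to 259. Hoxc8 had no count in untreated p65 KO and was at least 136-fold higher in IKK2 KO. Hoxc5 and Hoxc10 share 166 exon bases on the same strand, 5.37% of Hoxc5 and 8.70% of Hoxc10.

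HoxD genes reached a mean of 1 CPM only in WT and p65 KO, and in WT only Hoxd8 did. Hoxd8, at chr2:74704615-74707933, gave 11.8 and 12.6 CPM in WT and 12.2 and 11.4 in p65 KO, and had no count in any of the 6 IKK2 KO libraries. WT and p65 KO overlapped (log2 difference -0.05 ± 0.09; edgeR, adjusted p = 0.59), and WT was at least 138-fold higher than IKK2 KO. By RPKM, Hoxd8 was the highest Hox gene of untreated WT at 4.45 ± 0.202 (SD, n = 2). Hoxd9, a trunk and limb gene, separated the lines that shared Hoxd8, with 8.67 and 9.35 CPM in p65 KO and no count in untreated WT, at least 133-fold higher in p65 KO. Hoxd10, which acts in the hindlimb and lumbar cord, gave 2.60 and 1.70 CPM in p65 KO and had 1 count over both untreated WT libraries.

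Posterior members marked each line differently. Hoxb9, which helps to shape the rib cage, lies at chr11:96271457-96276595. It gave 68.0 and 71.1 CPM in untreated IKK2 KO, 4.52 and 5.73 in p65 KO and 0.507 and 0.0821 in WT. The lines did not overlap, and the WT libraries differed most from each other as a ratio. Hoxb9 was 13.5-fold higher in IKK2 KO than in p65 KO and 255-fold higher than in WT, where its 12 counts gave a 95% counting interval of 146 to 495. Per kilobase it was the highest Hox gene of any line, at 27.0 ± 0.865 RPKM (SD, n = 2), ahead of Hoxb6 at 9.46 in the same line. Hoxa9, known from blood stem cells and leukaemia, was the reverse, with 2.74 and 2.59 CPM in WT, 0.502 and 0.582 in p65 KO and 0.285 and 0.186 in IKK2 KO. Hoxa10, a gene of the lumbar spine and the uterus, was highest in p65 KO at 6.80 and 6.98 CPM, against 3.14 and 3.04 in WT and 2.00 and 1.98 in IKK2 KO. Hoxb13, the most posterior HoxB gene, reached 1.14 and 1.20 CPM in p65 KO and had no count in any WT library. In untreated IKK2 KO it had 6 counts over both libraries, a mean of 0.181 CPM.

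Over the tested members, 13 of 26 were higher and 5 lower in untreated p65 KO than in WT, and IKK2 KO against WT gave 16 higher and 6 lower (edgeR, adjusted p under 0.05). IKK2 KO against p65 KO gave 14 higher and 10 lower. These shares stand beside a background in which the lines differed at most genes. Of all 16322 tested genes, 39.8% were higher and 41.1% lower in p65 KO than in WT, 35.9% and 38.4% in IKK2 KO than in WT, and 35.5% and 36.9% in IKK2 KO than in p65 KO. A difference was thus the usual state of a gene between these lines, and the members' counts are read only against that. Some members, among them Hoxc5, Hoxc8, Hoxc9 and Hoxd9, passed the low-count filter only through the line where they were high. Hoxc8 had 299 counts in untreated IKK2 KO, 1 in WT and 0 in p65 KO. Calls of such members against that line were in effect set by the filter, so these counts of calls give no separate support. In the alternatives tried, 7 of these 64 calls were lost somewhere and none was reversed. The largest of the lost ones, Hoxc6 in p65 KO against WT, rested on 7 counts against 1.

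At 45 min of TNF in WT, 3 members passed the threshold as lower and none as higher. Hoxa3 changed most. Its WT libraries gave 23.9 and 22.1 CPM untreated, 11.8 and 12.3 at 45 min and 14.1 and 15.2 at 90 min. Both treated groups lay wholly below the untreated libraries, and the 90 min libraries lay between the others. The fall was -0.93 ± 0.09 on the log2 scale at 45 min (edgeR, adjusted p = 4.1e-11), where the fitted level fell by 47.4%, and -0.65 ± 0.08 at 90 min (adjusted p = 1.2e-07). Hoxa2, the neighbour of Hoxa3, went from 4.67 and 5.09 CPM to 2.92 and 3.261 at 45 min, and stood at 3.46 and 3.93 at 90 min, below the untreated range at both times. It fell by 0.67 ± 0.16 on the log2 scale at 45 min (edgeR, adjusted p = 0.0017), while its 90 min difference of -0.41 ± 0.15 missed the threshold (adjusted p = 0.076). The gene model Gm28308, on the same strand, overlaps 15% of the exon bases of Hoxa2 and 8.01% of those of Hoxa3. How reads in these overlaps were counted is not given, so the Hoxa2 and Hoxa3 values may not be fully separate. Hoxb3 went from 14.5 and 14.1 CPM to 11.4 and 11.9 at 45 min, a fall of -0.29 ± 0.09 (edgeR, adjusted p = 0.026), and stood at 11.8 and 13.2 at 90 min.

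The other abundant WT members moved less. Hoxd8 gave 11.9 and 11.6 CPM at 45 min and 11.6 and 10.2 at 90 min, against 11.8 and 12.6 untreated. Hoxa5 gave 6.49 and 5.94 CPM at 45 min against 7.91 and 6.53 untreated, and Hoxa7 gave 5.35 and 7.86 against 5.83 and 5.58. None of these 3 passed the test at either time. Of the 15 members at 1 CPM or more in WT, 13 had a lower mean at 45 min, with a median log2 change of -0.24, and 13 at 90 min, with a median of -0.17. Among the 13168 genes at that level in WT, 48.1% and 49.1% were lower, and the median was 0.01 and 0.00. Libraries lay wholly below the untreated ones for 8 of the 15 members at 45 min and 7 at 90 min, against 24.8% and 23.8% of those genes. The 3 falls at 45 min compare with 7.75% of genes that fell and 6.61% that rose, and the 1 fall at 90 min, that of Hoxa3, with 4.22% and 6.99%. Between 45 and 90 min no member passed the test in edgeR or in DESeq2, 1 had an unadjusted p under 0.05, and 9.71% of genes rose and 7.25% fell. That member was Hoxa3, whose log2 difference was 0.28 ± 0.10 (edgeR, adjusted p = 0.057).

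Both falls of Hoxa3 in WT held in every alternative tried. Hoxa2 at 45 min missed the threshold without 45 min library a (highest adjusted p = 0.059, edgeR), and Hoxb3 did so in DESeq2 and without any of the 4 WT libraries compared (highest adjusted p = 0.21).

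**Figure D3:**
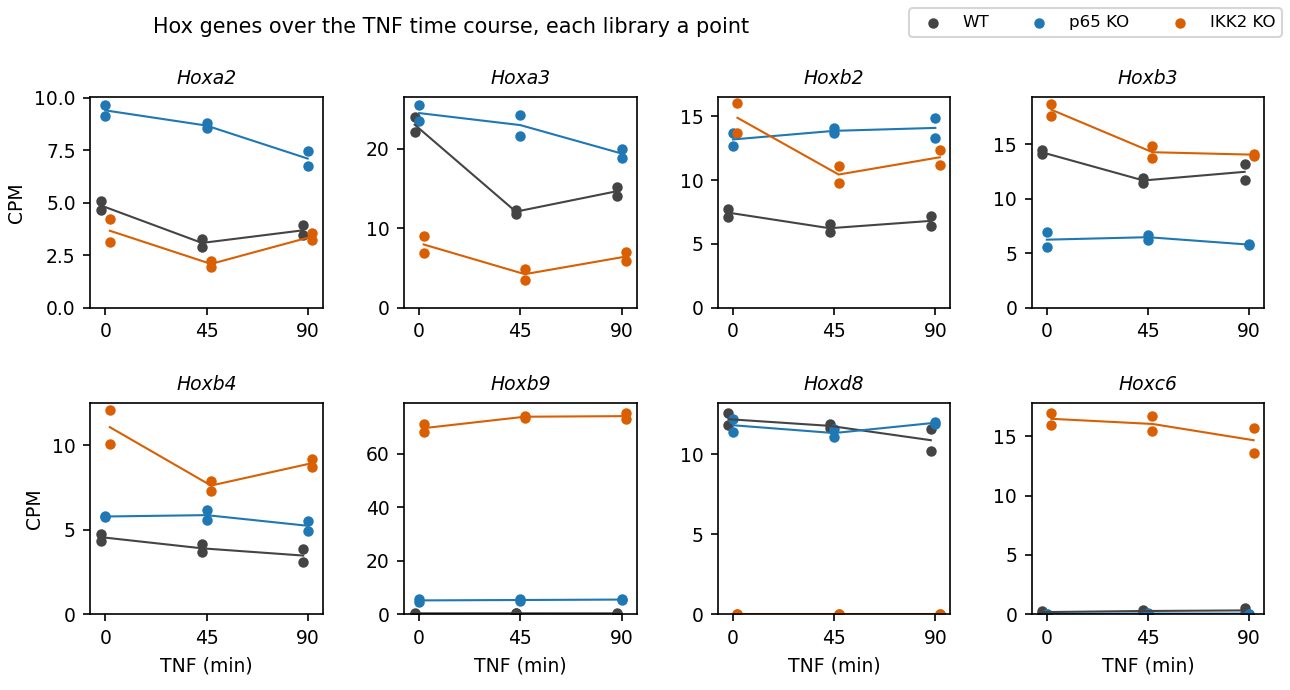
CPM of 8 Hox genes at 0, 45 and 90 min of TNF; each point is a library and lines join group means. Hoxa3 drops in WT from 23.9 and 22.1 to 11.8 and 12.3 CPM at 45 min and stays near its untreated level in p65 KO at that time, while Hoxb9 and Hoxc6 of IKK2 KO stay nearly flat.

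In p65 KO no member passed the test at 45 min. The edgeR fit called 0 of 26, DESeq2 called 0, and 0 had an unadjusted p under 0.05, where 1.53% of the 12304 genes at 1 CPM or more in p65 KO rose and 0.634% fell. Hoxa3 gave 21.7 and 24.3 CPM at 45 min against 23.5 and 25.5 untreated, and the libraries overlapped. Its log2 change was -0.09 ± 0.07. Hoxa2 gave 8.82 and 8.55 CPM against 9.68 and 9.14, and Hoxb3 gave 6.72 and 6.24 against 6.94 and 5.57. Of the 18 members at 1 CPM or more in this line, 9 had a lower mean and 2 lay wholly below the untreated libraries, against 51.2% and 23.5% of genes. The median log2 change was -0.01.

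At 90 min both Hoxa2 and Hoxa3 fell in p65 KO. Hoxa2 gave 6.77 and 7.45 CPM, a change of -0.40 ± 0.10 (edgeR, adjusted p = 0.0089). Hoxa3 gave 19.9 and 18.9 CPM, a change of -0.34 ± 0.07 (edgeR, adjusted p = 0.0023). Both genes lay below all untreated and 45 min libraries of the line. The 2 falls compare with 3.18% of genes that fell and 5.27% that rose. Lower means were found for 13 of 18 members (50.7% of genes), 7 of them without overlap (26.6% of genes), with a median of -0.11. Between 45 and 90 min Hoxd9 fell, from 9.02 and 9.89 to 7.40 and 7.29 CPM (log2 change -0.37 ± 0.11; edgeR, adjusted p = 0.044), where 0.585% of genes fell and 2.82% rose.

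These p65 KO calls were less steady than those of Hoxa3 in WT. DESeq2 called neither at 90 min (Hoxa3 adjusted p = 0.051, Hoxa2 not given one), Hoxa2 was lost without library a of either group, Hoxa3 without library b of either group, and Hoxd9 was lost in DESeq2 and without any of the 6 p65 KO libraries (highest adjusted p = 0.80). Other RNA moved in this line too. In p65 KO 4 of 5 nuclear RNAs fell at 45 min, among them Neat1 by 0.47 ± 0.04 and Malat1 by 0.26 ± 0.04 on the log2 scale, 3 of 5 rose at 90 min, and mitochondrial transcripts went from 11.3% and 11.6% of counts to 9.65% and 9.63% at 45 min and 7.98% and 9.0% at 90 min. In WT 1 of the 5 nuclear RNAs rose at each time, and in IKK2 KO 1 rose at 45 min and 3 at 90 min. Their part in the Hox values was not tested.

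The difference in response between p65 KO and WT was tested directly. Hoxa3 alone differed at 45 min among the 26 members. The fall in WT exceeded that in p65 KO by 0.84 ± 0.12 on the log2 scale (edgeR, adjusted p = 7.0e-07), where 7.08% of all tested genes differed in either direction. This held in every alternative tried. For Hoxa2 the same difference was 0.55 ± 0.19 (edgeR, adjusted p = 0.063). At 90 min no member differed between these lines in edgeR or DESeq2, 1 had an unadjusted p under 0.05, and 5.39% of genes differed. That member was again Hoxa3, with 0.31 ± 0.11 (edgeR, adjusted p = 0.11). The untreated libraries of each line enter its own responses at both times.

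At 45 min of TNF in IKK2 KO, 8 members passed the threshold as lower and none as higher. Hoxa3 gave 4.91 and 3.55 CPM against 6.96 and 8.98 untreated, a change of -0.92 ± 0.16 (edgeR, adjusted p = 3.3e-05). Hoxa2 gave 2.25 and 1.94 CPM against 3.14 and 4.21, a change of -0.81 ± 0.20 (edgeR, adjusted p = 0.0043). For both genes the treated libraries lay wholly below the untreated ones, as they had in WT. The other 6 were the neighbours from Hoxb2 to Hoxb7. Hoxb2 gave 9.76 and 11.1 CPM against 13.7 and 16.02, a change of -0.50 ± 0.10 (edgeR, adjusted p = 0.00045). Hoxb4 gave 7.92 and 7.32 CPM against 10.1 and 12.1, and Hoxb5 gave 6.56 and 4.47 against 7.53 and 8.67, changes of -0.54 ± 0.11 and -0.56 ± 0.15. Hoxb3 gave 14.8 and 13.7 CPM against 18.7 and 17.6, Hoxb6 gave 14.95 and 14.97 against 18.8 and 18.3, and Hoxb7 gave 9.63 and 8.45 against 12.1 and 12.2, with changes of -0.35, -0.31 and -0.43. None of these 6 HoxB genes overlapped its untreated libraries.

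Beyond Hoxb7 no member of the HoxB cluster passed the test. Hoxb8 gave 15.4 and 13.6 CPM against 17.3 and 16.2, a change of -0.21 ± 0.10 that missed the threshold (edgeR, adjusted p = 0.19). Hoxb9, the next gene, gave 73.4 and 74.3 CPM against 68.0 and 71.1 and was slightly above its untreated libraries (0.09 ± 0.05; edgeR, adjusted p = 0.38). No HoxC gene passed the test at 45 min. Hoxc6 gave 16.7 and 15.4 CPM against 15.97 and 17.0, and Hoxc4, Hoxc5, Hoxc8 and Hoxc9 had log2 changes of -0.11 to 0.12.

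At 90 min IKK2 KO had 5 falls and they were partly other genes. Hoxb2, Hoxb3 and Hoxb7 were called at both times, with changes of -0.33, -0.37 and -0.47 at 90 min from libraries at 11.2 and 12.4, 13.97 and 14.15, and 9.21 and 8.29 CPM. Hoxa10 gave 1.31 and 0.845 CPM against 2.00 and 1.98 untreated (-0.88 ± 0.26; edgeR, adjusted p = 0.041). Hoxc4 gave 7.40 and 8.34 CPM against 11.3 and 10.5 (-0.47 ± 0.12; edgeR, adjusted p = 0.0085). Hoxa2 and Hoxa3 had returned towards untreated, at 3.58 and 3.22 CPM and at 5.93 and 6.97 CPM, and overlapped the untreated libraries. From 45 to 90 min Hoxa2 rose by 0.70 ± 0.20, Hoxa3 by 0.62 ± 0.16 and Hoxb5 by 0.44 ± 0.15 on the log2 scale, and Hoxa10 (-1.09 ± 0.25) and Hoxc4 (-0.35 ± 0.12) fell. In that comparison 12.6% of genes rose and 7.01% fell.

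Of the 21 members at 1 CPM or more in IKK2 KO, 18 had a lower mean at 45 min and 19 at 90 min, with median log2 changes of -0.24 and -0.30. Among the 12633 genes at that level in this line, 49.2% and 48.7% were lower, with medians of 0.00 and 0.00. At 45 min 15 members lay wholly below their untreated libraries and at 90 min 14, against 24.5% and 21.8% of genes. The 8 called falls at 45 min compare with 6.86% of genes that fell and 4.09% that rose, and the 5 at 90 min with 1.39% and 4.27%. The summed Hox level went from 262 ± 8.19 to 233 ± 6.02 and 236 ± 2.58 CPM (SD, n = 2).

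Of the calls in IKK2 KO, those of Hoxa3 and Hoxb2 at 45 min held in every alternative tried, and every other one was lost in at least 1. The 8 calls at 45 min became 3 without untreated library b, 3 without 45 min library b, 5 without untreated library a and 4 in DESeq2, and the 5 at 90 min became 1 without untreated library a, 2 without any of the other 3 libraries and 0 in DESeq2. Between 45 and 90 min the count of calls was 1 without 45 min library b, 2 without 90 min library a, 3 without 90 min library b and 2 in DESeq2, in place of 5. Hoxa3, Hoxa10 and Hoxb5 were among the calls lost without 90 min library b. No member's response in IKK2 KO differed from that in WT at 45 min (0 of 26 in edgeR and in DESeq2, 1 with an unadjusted p under 0.05, 4.86% of genes) or at 90 min (0, 0, 2 and 2.35%). So neither the 8 calls against 3 nor the HoxB falls of IKK2 KO are shown to differ from WT. Among members at 1 CPM or more in both untreated lines, the largest such differences at 45 min were 0.59 ± 0.29 for Hoxa10 and -0.55 ± 0.22 for Hoxb6 (edgeR, adjusted p = 0.38 and 0.19).

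**Figure D4:**
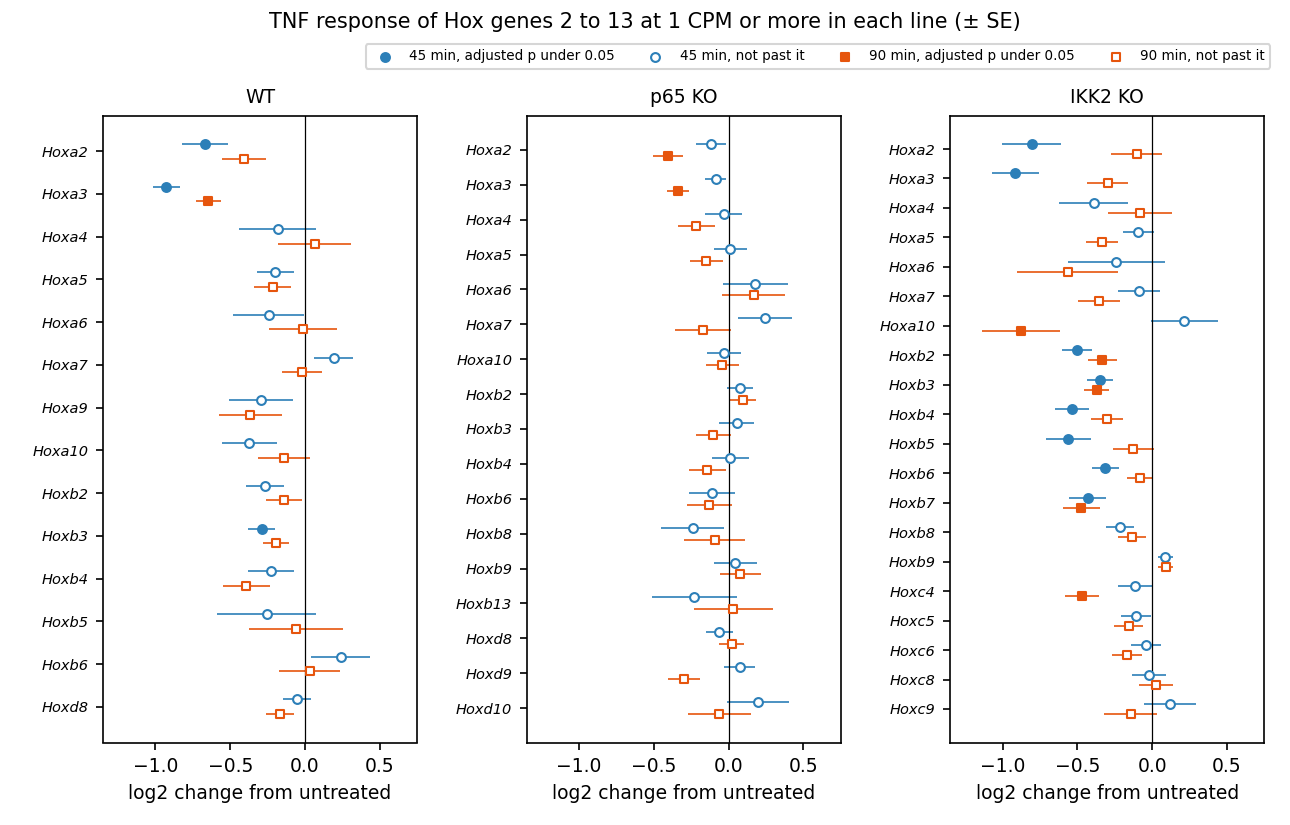
Log2 change (± SE, edgeR) at 45 min (circles) and 90 min (squares) of TNF for the Hox genes with paralogue numbers 2 to 13 at 1 CPM or more in each line. Filled symbols passed an adjusted p of 0.05; every filled symbol lies left of 0, with 3 and 1 in WT, 0 and 2 in p65 KO and 8 and 5 in IKK2 KO.

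TNF acts through the transcription factors NF-kB and AP-1, so the promoter windows of RefSeq were searched for letters of their binding motifs. A window runs from 250 bases before to 50 bases after an annotated start (GRCm38.p6), and 24 windows matched 22 of the 39 members. The window of Hoxa3 at chr6:52213018-52213317 and that of Hoxa2 at chr6:52164782-52165081, both on the minus strand, are shown. These genes had called falls in all 3 lines (edgeR), in p65 KO only at 90 min and not in DESeq2. The Hoxa3 window lies at the far upstream end of its annotated span (chr6:52169062-52213336), beyond Hoxa4, Hoxa5 and Hoxa6. Any start of Hoxa3 elsewhere in that span was not searched. Capitals would mark a match on either strand to a kappaB-type motif (GGG, any 3 bases, then TTCC) or an AP-1-type motif (TGANTCA), and neither window holds one.
Hoxa3: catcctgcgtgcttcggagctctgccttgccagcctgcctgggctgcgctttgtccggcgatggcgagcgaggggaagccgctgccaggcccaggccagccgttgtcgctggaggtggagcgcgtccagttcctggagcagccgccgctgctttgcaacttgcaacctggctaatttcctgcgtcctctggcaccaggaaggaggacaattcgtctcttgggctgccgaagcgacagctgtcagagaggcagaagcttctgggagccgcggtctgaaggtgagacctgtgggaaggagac
Hoxa2: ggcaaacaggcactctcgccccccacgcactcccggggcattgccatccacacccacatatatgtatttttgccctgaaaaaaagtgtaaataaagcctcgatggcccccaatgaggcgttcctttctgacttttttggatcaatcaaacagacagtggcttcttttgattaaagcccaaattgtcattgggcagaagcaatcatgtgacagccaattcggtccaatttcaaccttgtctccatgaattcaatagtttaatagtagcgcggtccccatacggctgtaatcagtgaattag
The kappaB-type motif was in 1 of the 24 Hox windows (4.17%) and in 5.56% of all 32851 windows. TGANTCA was also in 1 (4.17%), against 7.81% of all windows. Each of these matches lay in a window of Hoxd11, which had 2.1 counts in all. A looser kappaB-type pattern (GGG, any 5 bases, then CC), which includes every match of the first motif, was in 15 Hox windows (62.5%) and in 50.8% of all windows, and Hoxa2 held 1 match to it and Hoxa3 none. No match says only that these letters are not in this window.

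Long non-coding RNAs of the clusters were listed as 12 genes, of which 11 were in the table and 6 were tested. Hoxaas2, an antisense RNA within the Hoxa3 locus that overlaps 8.36% of the exon bases of Hoxa3, was the only one that changed with TNF. It gave 4.97 to 5.05 CPM in untreated WT and 3.09 to 3.82 at 45 min, a change of -0.53 ± 0.16 (edgeR, adjusted p = 0.021). In IKK2 KO it went from 2.96 to 3.71 CPM to 1.71 to 1.72 at 45 min (-0.95 ± 0.23; edgeR, adjusted p = 0.0031) and back to 2.94 to 3.69 at 90 min (0.95 ± 0.22 from 45 min; adjusted p = 0.0014). In p65 KO it stood at 1.004 to 1.29, 0.926 to 1.245 and 0.819 to 1.252 CPM. Hoxaas2 and Hoxa3 thus ran in the same direction in WT and IKK2 KO, in a pair of genes whose reads the table may not separate. Hotair, which lies in HoxC, Hottip and Hoxa11os stood at or under 0.0528 CPM in every library.

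Of the 9 TALE cofactors, all of them tested, 2 fell in WT at 90 min, the only calls against untreated. Meis1 fell by 0.41 ± 0.11 and Meis2 by 0.18 ± 0.04 on the log2 scale there (edgeR, adjusted p = 0.013 and 0.0031). In untreated cells Meis1 stood at 8.95 to 10.5 CPM in WT, 2.79 to 3.03 in p65 KO and 15.1 to 15.5 in IKK2 KO. Of the 21 Polycomb genes, whose complexes hold Hox clusters silent, 1 rose and 2 fell in WT at 45 min, and 1 rose and 5 fell at 90 min. Among the genes at 1 CPM or more in WT, 6.61% rose and 7.75% fell at 45 min and 6.99% and 4.22% at 90 min. The falls included Cbx2, a reader of the Polycomb mark, by 0.73 ± 0.10 and 0.35 ± 0.09. In p65 KO 1 Polycomb gene rose and 1 fell at 90 min, and in IKK2 KO 2 rose at 45 min, the only calls of the list against untreated in those lines. The fall of Cbx2 at 45 min was larger in WT than in p65 KO by 0.54 ± 0.12 and than in IKK2 KO by 0.47 ± 0.14 on the log2 scale (edgeR, adjusted p = 0.0014 and 0.033). With Cbx2 counted, p65 KO minus WT gave 2 Polycomb genes higher and 1 lower in that response. IKK2 KO minus WT gave 3 higher and 0 lower. Of all tested genes, 7.08% and 4.86% differed in either direction.

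The 12 Trithorax and boundary genes keep Hox genes active or separate their domains. In WT 1 of them rose at 45 min, and 1 rose and 1 fell at 90 min. In p65 KO 1 fell at 45 min and 1 rose at 90 min, and in IKK2 KO 2 rose at each time. Of genes at 1 CPM or more, 6.61% and 6.99% rose in WT at 45 and 90 min, and 7.75% and 4.22% fell. In p65 KO 1.53% and 5.27% rose and 0.634% and 3.18% fell. In IKK2 KO 4.09% and 4.27% rose and 6.86% and 1.39% fell. Kdm6b was the only gene of the list to rise in all 3 lines. Kdm6b removes the Polycomb mark H3K27me3. It rose by 0.91 ± 0.05 at 45 min and 0.99 ± 0.05 at 90 min in WT, by 0.34 ± 0.06 and 0.64 ± 0.05 in IKK2 KO, and by 0.32 ± 0.05 at 90 min in p65 KO (edgeR, highest adjusted p = 3.0e-05). No Hox gene passed the threshold for a rise from untreated in any of these groups. Whether the rise of Kdm6b bears on the Hox genes was not tested. The upstream regulators, retinoic acid receptors and enzymes, CDX factors and Gdf11, had 4 of 9 genes tested. Cyp26b1, which breaks down retinoic acid, fell at 45 min by 0.25 ± 0.04 in WT and by 0.55 ± 0.13 in IKK2 KO, and Rara, a retinoic acid receptor, fell by 0.30 ± 0.06 in WT and rose by 0.24 ± 0.06 in IKK2 KO at that time.

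Other homeobox and T-box genes of body position were listed as 20 genes, and 9 were tested. Untreated p65 KO had 6 higher and 2 lower than WT, and IKK2 KO 2 higher and 4 lower. Of all tested genes 39.8% were higher and 41.1% lower in p65 KO, and 35.9% and 38.4% in IKK2 KO. En1, a dorsal-ventral and midbrain gene, had no count in the 6 WT libraries, 0.137 to 0.208 CPM in untreated p65 KO and 22.2 to 23.9 in IKK2 KO. Emx2, which acts in the girdles and the kidney, stood at 13.03 to 14.2 CPM in p65 KO against 3.73 to 3.804 in WT. With TNF the calls of the list went both ways. En1 fell by 0.39 ± 0.08 in IKK2 KO at 45 min (edgeR, adjusted p = 0.00077). Prrx2, a limb mesenchyme gene, fell in WT by 0.33 ± 0.04 at 45 min and by 0.17 ± 0.04 at 90 min. Prrx1, a paralogue of Prrx2, rose in WT at 90 min by 0.13 ± 0.03, in p65 KO at 90 min by 0.16 ± 0.03 and in IKK2 KO at 45 min by 0.12 ± 0.03. Tbx15, a gene of the shoulder girdle and skin, rose in WT by 0.25 ± 0.04 at 45 min and fell by 0.31 ± 0.04 at 90 min, and fell in IKK2 KO by 0.19 ± 0.05 at 90 min. The limb genes Tbx4, Tbx5 and Pitx1, which mark forelimb and hindlimb, stood at or under 0.0913 CPM in every library.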

How the data were processed

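Directional total RNA libraries (2 x 76 bases) were aligned to GRCm38 with HISAT2 and counted with featureCounts (Subread 1.6.2), per the submitters' processing notes; the annotation release, strand setting and multimapping rule were not given in the sources used here. The authors deposited estimated counts per gene, of which 31.8% of non-zero values were fractional, and these were rounded before testing. The values of 1 member are not reported here, though it is in the counts over members. Members and gene lists were chosen with earlier results of these data known.

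Genes were filtered with filterByExpr, which left 16322 of 55536, and TMM-scaled. One edgeR 4.0.16 robust quasi-likelihood fit (R 4.3.3, limma 3.58.1) over all 18 libraries, with 1 coefficient a group, gave 16 contrasts. P-values were Benjamini-Hochberg adjusted over all tested genes (threshold 0.05), and the SE is the log2 change over the root of F. CPM used unrounded values, and RPKM used GENCODE M21 exon lengths. Intervals are 95% and cover counting error only. Hox genes were described by library when a mean reached 2 CPM and they ranked among the 10 highest by RPKM in an untreated line or passed the test; Hoxb13 and Hoxc10 fall outside this rule and were chosen after their values were seen. Alternatives were DESeq2 1.42.0, RLE scaling, library totals, values not rounded, no filter and only the groups compared. Others were other level thresholds, protein-coding genes alone and leaving out each library.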

Additional observations from a re-analysis of the deposited data

Results flagged for a closer look

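Where the TNF response of each KO line was tested against that of WT, Hoxa3 gave the 1 called difference. Its log2 response to 45 min of TNF in p65 KO minus that in WT was 0.84 ± 0.12 (edgeR, adjusted p = 7.0e-07). The responses of IKK2 KO and p65 KO were not tested against each other. Both WT libraries at 45 min lay below both untreated ones, at 11.8 and 12.3 against 23.9 and 22.1 CPM, and the p65 KO libraries overlapped, at 21.7 and 24.3 against 23.5 and 25.5 CPM.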

How the results depend on the processing

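Of the 26 calls of Hox genes in TNF comparisons, 5 held under all alternatives, 21 were lost in at least 1 and 0 changed direction. The 5 were Hoxa3 in WT at both times, Hoxa3 and Hoxb2 in IKK2 KO at 45 min, and the difference of Hoxa3 between p65 KO and WT at 45 min. Of 64 calls between untreated lines, 57 held under all and 7 were lost in some. DESeq2 called 0 Hox genes in p65 KO at 90 min against untreated and 0 against 45 min, 4 in IKK2 KO at 45 min, 0 at 90 min and 2 between the times. With library totals, 2 were called in WT at 90 min, 2 in the difference between p65 KO and WT at 45 min and 1 at 90 min. Fitting only the groups compared gave 1 in WT between the times, 2 in p65 KO between the times, 3 in IKK2 KO at 90 min and 2 in the difference between p65 KO and WT at 45 min. Without the filter, and with protein-coding genes alone (chosen after seeing the data), WT between the times gave 1 and p65 KO between the times gave 2. The cause was not tested.

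Leaving out 1 library at a time gave 2 to 3 calls in WT at 45 min, 1 to 1 at 90 min and 0 to 1 between the times. In p65 KO it gave 1 to 2 at 90 min and 0 to 2 between the times, and in IKK2 KO 3 to 8 at 45 min, 1 to 5 at 90 min and 1 to 5 between the times. The difference between p65 KO and WT at 45 min ranged from 1 to 2, and the untreated lines gave 17 to 19, 22 to 24 and 25 to 27. For the last, IKK2 KO against p65 KO, the full fit gave 24 calls, below that whole range. The low-count filter was run again without each library, so the members tested can differ. Members expressed in WT, p65 KO and IKK2 KO numbered 15, 19 and 21 at 0.5 CPM, 13, 17 and 19 at 2 CPM and 12, 15 and 19 at 1 RPKM. No paired analysis was possible because the table's columns carry no replicate number. The 2 libraries a group limit the precision.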
